A study of Mus musculus with 32 samples.

Results

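The comparison is the difference between 2 fractions of the same tumour, set between sunitinib-treated and vehicle-treated mice. It asks whether the sunitinib effect in the endothelium-selected cells differs from the effect in the rest of the tumour. It uses 16 of the 32 arrays of the study: both fractions of 8 tumours resected at 1300 mm3, 4 from mice labelled sensitive and 4 from vehicle mice. All tumours came from 4T1-Luc cells, a luciferase-marked mouse mammary carcinoma line, placed in a mammary fat pad, and the hosts were immunocompetent female Balb/C mice, 8 weeks old at injection. After 1 week of establishment, sensitive mice received 40 mg/kg sunitinib and carry the label Sensitive for the time up to day 8. Vehicle mice received the drug's PBS and DMSO carrier and are titled "Not treated". Tumours were digested in collagenase, DNase and actinomycin D, a transcription inhibitor. Beads against PECAM-1, a surface protein of endothelial cells that some leukocytes and platelets also carry, took the endothelial (EC) fraction, and the bulk fraction is the digested tissue that remained. Bulk is therefore depleted of whatever the beads took, and is not whole tumour. For each mouse the bulk level was subtracted from the EC level, and the 4 differences of sensitive mice were set against the 4 of vehicle mice.

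Sunitinib blocks receptor tyrosine kinases, among them the receptors for VEGF and PDGF. VEGF receptors on endothelial cells drive sprouting, in which a tip cell leads and secretes basement membrane, while PDGF receptor beta keeps pericytes, the mural cells, attached to vessels. Tumours also hold macrophages, which depend on the CSF1 receptor, another target of the drug.

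Levels are log2 of the processed spot signal after subtraction of each array's own 75th percentile, so that a difference of 1 is a doubling. The share of probes well above background in the EC fraction was 79.9% to 86.4% for sensitive mice, against 80.4% to 82.2% for vehicle mice. In bulk the shares were 69.9% to 82.4% in sensitive mice and 65.7% to 70.3% in vehicle mice. The EC arrays of both groups lay on slide 1 and the bulk arrays of both on slide 2, so that a slide effect cancels in the contrast. On each slide the sensitive mice filled column 1 and the vehicle mice column 2, so column and treatment cannot be told apart within a fraction.

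The bulk array of vehicle mouse 3 stood apart from the other 7 bulk arrays. Over 38 endothelial genes its median level was 1.10, against -2.26 to -0.98 on the other bulk arrays of both treatments. Over 23 immediate early and dissociation-induced genes, which switch on within minutes of tissue handling, it was 1.90, against 4.80 to 5.31. Over 22 inflammatory cytokine genes it was -0.15, against 3.04 to 3.93, and over 6 erythroid genes -0.43, against 1.65 to 4.93. Its EC partner lay within the range of the other EC arrays for the endothelial, immediate early and erythroid lists. For the cytokine list that EC array was the lowest, at 3.49 against 3.66 to 4.76. For tumour epithelial genes it was the highest, at 2.74 against 0.51 to 2.34. What set this array apart was not tested. Values are from all 8 mice, and the larger moves without vehicle mouse 3 are given beside them.

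**Figure D1:**
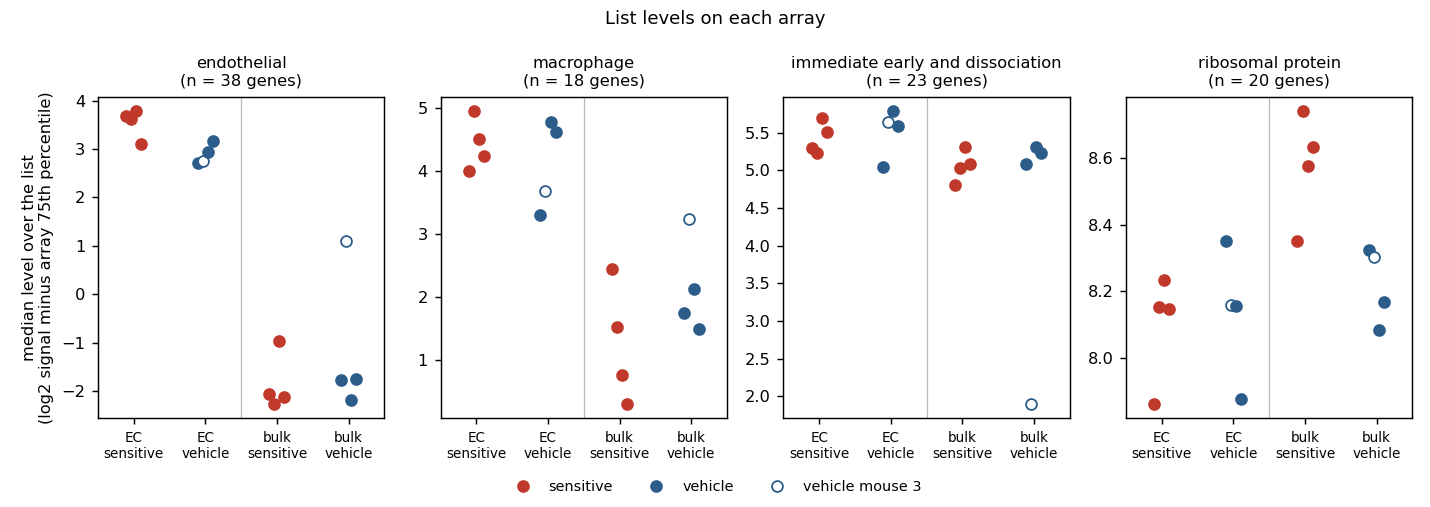
Median level of 4 gene lists on each of the 16 arrays, as log2 signal minus the array's 75th percentile, for sensitive (red) and vehicle (blue) mice in the EC and the bulk fraction. The open circle is vehicle mouse 3, whose bulk array has 1.10 for endothelial genes and 1.90 for immediate early genes, away from the other bulk arrays.

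The contrast was tested in 18129 genes, of which 1 passed (0.00552%) at an adjusted p of 0.05 in limma, and 1860 had an unadjusted p under 0.05. The 1 gene was H2-M10.2, a member of the M10 class of nonclassical MHC class I genes. Its EC minus bulk difference was 1.22, 1.10, 1.08 and 1.12 in sensitive mice, against 3.67, 3.30, 3.10 and 3.79 in vehicle mice. The groups did not overlap, and the fitted difference was -2.34 ± 0.21 (SE, n = 4 mice a group; adjusted p = 0.0191 in limma). The EC levels overlapped, -4.03 to -3.41 in sensitive mice and -3.72 to -3.18 in vehicle mice. The bulk levels were -5.10 to -4.51 in sensitive mice and -7.09 to -6.77 in vehicle mice, and no vehicle bulk array was well above background. With the vehicle bulk arrays set at the dimmest signal that counted as well above background, the log2 difference was -1.51. On the signal used here the EC over bulk ratio was thus at least 2.84-fold lower in sensitive mice. The probe is dim, and that bound did not hold under other processing. With normexp background correction the difference was -0.75 and in the deposited table -0.74. H2-M10.2 passed when vehicle mouse 2 or 4 was left out and in no fit without any other mouse. Without vehicle mouse 3 its adjusted p was 0.0669, and 0 genes passed in limma while 1755 had an unadjusted p under 0.05.

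Of the 18129 genes, 16828 were measured in all 4 groups of arrays, meaning well above background on at least 1 array of each. The smallest adjusted p among these measured genes was 0.162 in limma, and the 23260 tested probes with no gene name gave 0 calls, with 3379 at an unadjusted p under 0.05. For 907 other genes the difference was only an upper bound, in 899 of them because no vehicle bulk array was well above background. For 90 it was only a lower bound, and for 304 no direction could be given. Since no measured gene passed, the genes and lists below are described by their values, by how many members lay above or below 0, and by whether the 4 sensitive mice and the 4 vehicle mice overlapped. Over all measured genes the sensitive mice lay wholly above the vehicle mice in 275 (1.63%) and wholly below them in 679 (4.03%), or in 504 (3.00%) and 1070 (6.36%) without vehicle mouse 3. Leaving out a mouse cannot create an overlap, so such counts cannot fall without it. The median difference was -0.05 (-0.03 without that mouse), and 7433 measured genes were above 0 and 9395 below.

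Endothelial genes stood further above bulk in sensitive than in vehicle tumours. Over the 38 measured of 40 listed endothelial genes, the median EC minus bulk was 5.37, 5.27, 4.96 and 5.20 in the 4 sensitive mice. It was 3.96, 1.40, 4.98 and 4.27 in the vehicle mice 2 to 5. Sensitive mice sat within a narrow band, and 1 vehicle mouse reached into it while vehicle mouse 3 was far below. The median of the differences between groups was 1.26, with 37 of 38 genes above 0, from -0.23 for Kdr to 2.85 for Cdh5. In 1 of the 38 the sensitive mice lay wholly above the vehicle mice, against 1.63% of all measured genes. In limma 0 of the 38 passed and 8 had an unadjusted p under 0.05, against 9.01% of all measured genes. Without vehicle mouse 3 the median was 0.60 and again 37 genes were above 0. In these samples a different number of endothelial cells and a different amount of RNA per cell cannot be told apart.

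The 2 fractions contributed differently with and without that mouse. In the EC fraction all 38 endothelial genes were higher in sensitive than in vehicle mice, with a median of 0.70, or 0.72 without vehicle mouse 3. In bulk 32 of the 38 were lower in sensitive mice, with a median of -0.58. Without vehicle mouse 3 the bulk median was 0.05, with 14 of 38 lower. In 34 of the 38 genes vehicle mouse 3 had the lowest EC minus bulk difference of all 8 mice.

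**Figure D2:**
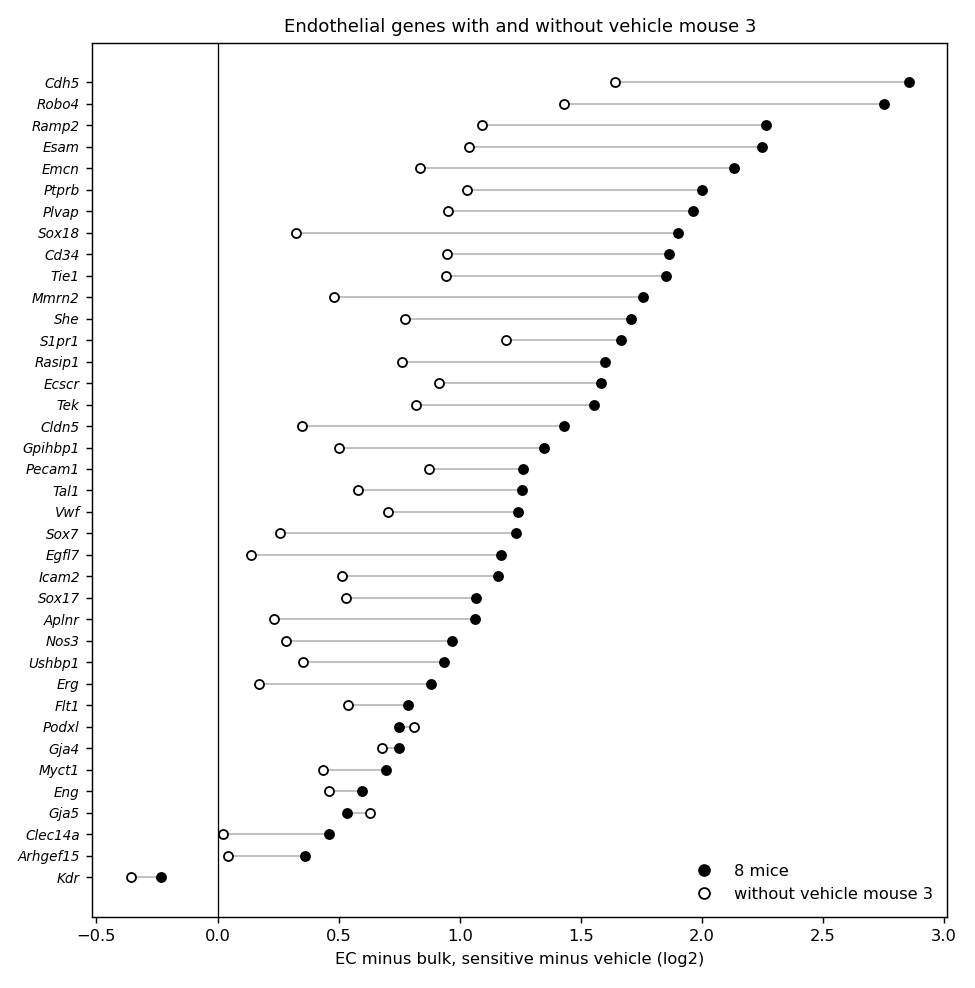
Difference in EC minus bulk between sensitive and vehicle mice (log2, x axis) for each of the 38 measured endothelial genes, from all 8 mice (filled) and without vehicle mouse 3 (open). The points of Cdh5 are at 2.85 and 1.64, and Kdr alone is below 0 in both.

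Among named endothelial genes, Cdh5, the VE-cadherin of endothelial junctions, had EC minus bulk differences of 8.87, 8.72, 6.94 and 8.77 in sensitive mice. The vehicle mice had 7.10, 1.84, 5.98 and 6.97, and 2 of them lay above sensitive mouse 4. Its mean was 8.33 ± 0.93 in sensitive and 5.47 ± 2.48 in vehicle mice (SD, n = 4 each), a difference of 2.85 ± 1.08 (SE), or 1.64 without vehicle mouse 3. Pecam1, which encodes the antigen the beads bind, had 4.52, 3.75, 3.58 and 2.78 in sensitive mice, against 2.17, 1.23, 3.04 and 3.13 in vehicle mice. The groups overlapped, with a difference of 1.26 ± 0.49 (SE), or 0.87 without vehicle mouse 3. Ecscr, an endothelial surface regulator of migration, was the 1 member whose groups did not overlap. It had 4.78, 3.85, 4.60 and 4.71 in sensitive mice, against 3.82, 0.89, 3.33 and 3.56 in vehicle mice. Its difference was 1.58 ± 0.60 (SE), or 0.91 without vehicle mouse 3.

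Endothelial transcription factors were mostly above 0. The list median of EC minus bulk was 1.72, 2.27, 1.92 and 2.08 in sensitive mice, against 1.06, 0.90, 1.50 and 1.60 in vehicle mice, with no overlap. Of 24 measured, 20 were above 0 with a median of 0.69 (0.36 without vehicle mouse 3, with 22 above 0), and the groups did not overlap in 4. All 4 were higher in sensitive mice, which held for 1.63% of all measured genes. Lists can share genes, and this list and the endothelial list do. In limma 0 of the 24 passed and 5 had an unadjusted p under 0.05, against 9.01% of all measured genes. Hhex, a homeobox factor of early endothelium and blood, had 3.00, 3.35, 3.18 and 3.58 in sensitive mice, against 1.55, 1.26, 2.48 and 2.25 in vehicle mice. Its difference was 1.39 ± 0.30 (SE; adjusted p = 0.272 in limma), or 1.19 without vehicle mouse 3. Gata2, a zinc finger factor of endothelial and blood progenitor cells, had 5.33, 4.61, 3.97 and 4.32 in sensitive mice, against 3.44, 2.80, 3.33 and 2.61 in vehicle mice. Its difference was 1.51 ± 0.32 (SE; adjusted p = 0.272 in limma), or 1.43 without that mouse. Mef2c, a MADS-box factor, differed by 1.13 ± 0.25 (SE), or 1.15 without it. Meox2, a homeobox factor of vascular cells, differed by 1.84 ± 0.73 (SE), or 1.00 without it. All 4 stayed apart without vehicle mouse 3, which was fixed in advance, since leaving out a mouse cannot create an overlap.

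Genes of tip cells and of the VEGF response were mostly above 0. Their median EC minus bulk was 1.97, 1.50, 2.60 and 1.63 in sensitive mice, against 1.38, 1.06, 1.36 and 1.26 in vehicle mice, with no overlap. Of 25 measured, 20 were above 0 with a median of 0.69, or 21 with a median of 0.59 without vehicle mouse 3, and the groups did not overlap in 3. All 3 were higher in sensitive mice, against 1.63% of all measured genes. In limma 0 of the 25 passed and 8 had an unadjusted p under 0.05, against 9.01% of all measured genes. Nrp1, a co-receptor of VEGF, had 1.58, 0.79, 2.20 and 0.72 in sensitive mice, against -0.16, -0.02, 0.10 and 0.43 in vehicle mice. The vehicle mice lay near 0, where both fractions have the same level, and the difference was 1.24 ± 0.34 (SE), or 1.20 without vehicle mouse 3. Kcne3, a potassium channel subunit of tip cells, differed by 2.30 ± 0.67 (SE), or 1.57 without it. Nid2, the basement membrane protein nidogen, differed by 2.31 ± 0.72 (SE), or 1.51 without it.

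Of the receptors that sunitinib inhibits, 8 of 9 were measured and 6 were above 0, with a median of 0.67 (0.42 and 7 of 8 without vehicle mouse 3). None had groups that did not overlap. Flt1, a VEGF receptor, had 3.07, 2.70, 2.62 and 3.36 in sensitive mice, against 2.16, 1.41, 2.04 and 3.00 in vehicle mice. Its difference was 0.79 ± 0.34 (SE), or 0.54 without vehicle mouse 3. Pdgfrb, the pericyte receptor, differed by 1.07 ± 0.43 (SE), or 0.89 without it. Flt4, the VEGF receptor of lymphatic and sprouting endothelium, differed by 1.04 ± 0.85 (SE), or 0.60 without it. Flt4 was well above background on 1 of 4 sensitive and 2 of 4 vehicle bulk arrays, and had 0.12 to 1.85 over the alternatives. Csf1r, the macrophage growth factor receptor, differed by 0.55 ± 0.57 (SE), or 0.30 without vehicle mouse 3. Kit, the stem cell factor receptor of mast cells, differed by 0.32 ± 0.54 (SE), or 0.20 without it. Pdgfra, the fibroblast PDGF receptor, differed by -0.09 ± 0.44 (SE), or 0.15 without vehicle mouse 3. For Ret, the receptor of GDNF family ligands, no direction could be given.

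Kdr, the main signalling receptor of VEGF, gave opposite signs from its 2 tested probes. The brighter probe, which stands for the gene here, had a difference of -0.23 ± 0.27 (SE), or -0.36 without vehicle mouse 3, and its EC minus bulk differences averaged 0.03 ± 0.38 in sensitive and 0.27 ± 0.39 in vehicle mice (SD, n = 4 each). On that probe both means lay near 0, where the fractions have the same level. The other probe had 5.93, 5.93, 5.85 and 5.41 in sensitive mice, against 4.76, 1.32, 4.42 and 4.11 in vehicle mice. The groups did not overlap there, and the difference was 2.13 ± 0.67 (SE). The 16 ligands of the inhibited receptors had a median of -0.07, with 6 above 0, a median that was 0.01 with quantile scaling and 0.08 without vehicle mouse 3. Vegfa, the principal VEGF ligand, differed by -0.08 ± 0.45 (SE), or 0.25 without that mouse, and its sign also turned under other scalings. Nrtn, a ligand of the Ret receptor complex, was the 1 ligand of 16 whose groups did not overlap, at -0.40 ± 0.18 (SE), or -0.33 without vehicle mouse 3. Over all measured genes the sensitive mice lay wholly below the vehicle mice in 4.03%.

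Genes of vessel subtypes and supporting structures were mostly above 0 as well. Of 8 measured arterial genes, all were above 0, with a median of 0.64 (0.59 without vehicle mouse 3). The 11 measured venous and adhesion genes had a median of 0.43 with 8 above 0, which was 0.14 with normexp correction and 0.12 to 0.57 with 1 mouse left out, lowest without sensitive mouse 2. Among genes well above background on at least 12 arrays it was 0.016. The 15 Notch genes had a median of 0.31 with 12 above 0. Rbpj, the DNA-binding partner of Notch, lay the other way at -0.31 ± 0.18 (SE), with groups that did not overlap, but its other tested probe had -0.03. Only 3 of 8 lymphatic endothelial genes were measured, with a median of 1.01, which was 0.62 without vehicle mouse 3 and 0.41 with normexp correction. Of 17 mural genes, 15 were above 0 with a median of 0.45, or 0.23 without vehicle mouse 3. Rgs5, a pericyte regulator of G protein signalling, had 4.47, 3.94, 3.04 and 4.02 in sensitive mice, against 2.49, 1.55, 2.62 and 2.46 in vehicle mice. Those groups did not overlap, and the difference was 1.59 ± 0.35 (SE; adjusted p = 0.277 in limma), or 1.34 without vehicle mouse 3. It lay in bulk (-1.27 in bulk, 0.32 in EC). Kcnj8, a pericyte potassium channel subunit, differed by 1.58 ± 0.51 (SE), or 1.20 without that mouse. The 14 basement membrane genes had a median of 0.30 with 10 above 0. Among them Lama4, the laminin chain of vessel walls, differed by 1.23 ± 0.44 (SE), or 0.76 without vehicle mouse 3.

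**Figure D3:**
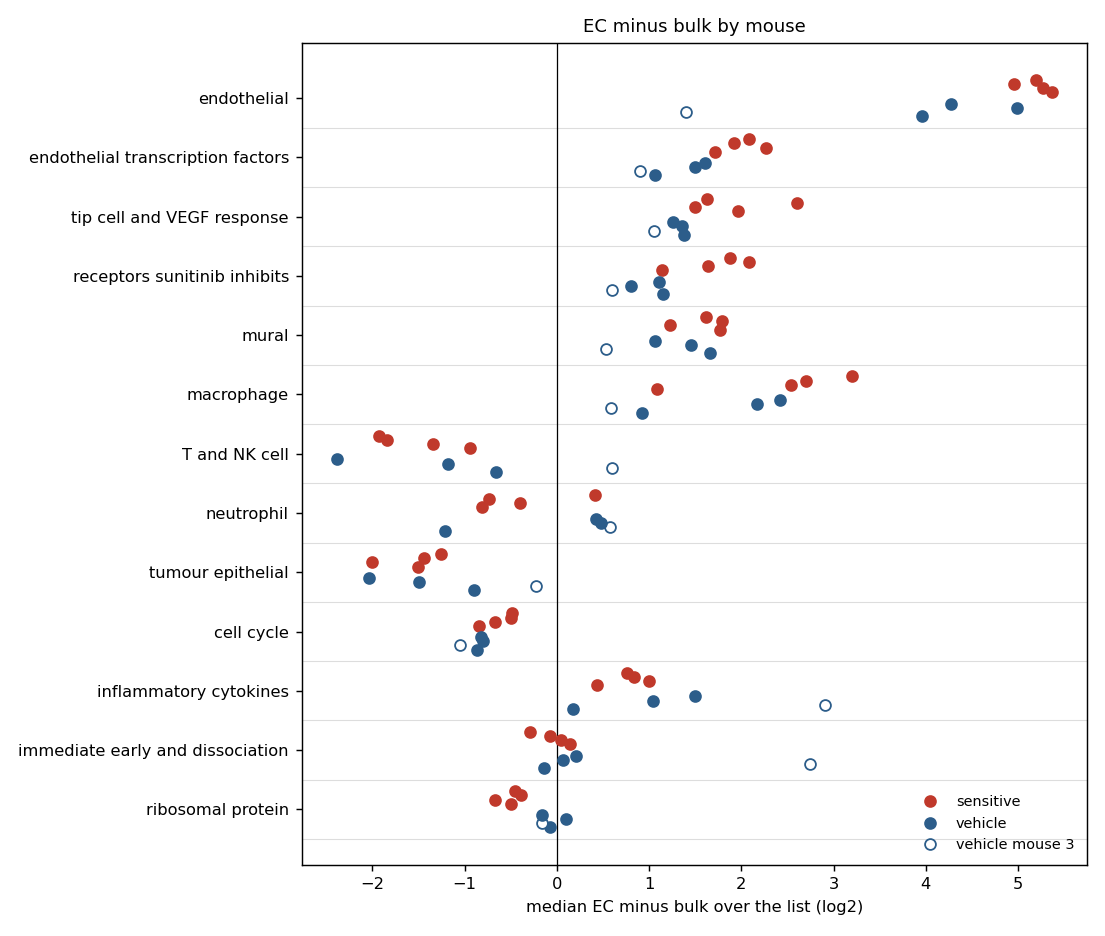
Median EC minus bulk (log2) over each of 13 gene lists in every mouse, sensitive mice (red) above vehicle mice (blue), with vehicle mouse 3 as an open circle. Endothelial medians are 4.96 to 5.37 in sensitive mice and 1.40 to 4.98 in vehicle mice, and vehicle mouse 3 is at 2.74 for immediate early genes.

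Macrophage genes were further above bulk in sensitive mice by list median, and the difference lay mainly in the bulk fraction. Over 18 measured genes, the median EC minus bulk was 1.09, 2.54, 2.70 and 3.20 in sensitive mice, against 0.92, 0.59, 2.17 and 2.42 in vehicle mice. The groups overlapped, and sensitive mouse 2 lay among the vehicle mice. The median difference was 1.08 with 17 of 18 above 0, or 0.76 with 18 of 18 without vehicle mouse 3. In bulk all 18 were lower in sensitive mice, also without vehicle mouse 3, with medians of -0.82 and -0.68. In the EC fraction the median was 0.22, or 0.06 without that mouse. All 18 macrophage genes were higher in EC than in bulk in both groups, so macrophage transcripts were part of the EC fraction. Mural genes, too, were higher in EC than in bulk in every mouse by list median. The part of these cells in the endothelial result was not tested. Maf, a transcription factor of tissue macrophages, was the 1 member of 18 whose groups did not overlap, at 1.09 ± 0.34 (SE), or 0.77 without vehicle mouse 3. Over all measured genes the sensitive mice lay wholly above the vehicle mice in 1.63%. In limma 0 of the 18 passed and 1 had an unadjusted p under 0.05, against 9.01% of all measured genes.

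Lymphocyte genes lay the other way, though mainly through vehicle mouse 3. Of 24 measured T and NK cell genes, 22 were below 0 with a median of -0.72, and without vehicle mouse 3 the median was -0.18 with 14 below 0. Their bulk levels differed widely between mice, from 1.09 to 3.71 in sensitive mice and from -0.69 to 3.11 in vehicle mice. Neutrophil genes had a median of -0.40 (-0.14 without that mouse), and Lcn2, the neutrophil iron-binding lipocalin that epithelium also makes, differed by -0.87 ± 0.29 (SE), or -0.62 without it. Eosinophil and mast cell genes had a median of -0.56 (-0.06 without it). In that list Epx, the eosinophil peroxidase, had 0.39, 0.37, 0.18 and 0.19 in sensitive mice, against 2.48, 2.70, 0.45 and 2.51 in vehicle mice. The groups did not overlap, but vehicle mouse 4 lay close to the sensitive mice, and the difference was -1.75 ± 0.46 (SE; adjusted p = 0.320 in limma), or -1.53 without vehicle mouse 3. It lay in the EC fraction (-2.15 in EC, -0.39 in bulk). Without vehicle mouse 4 it was -2.28, with an adjusted p of 0.0215 in limma. Erythroid, B and plasma, dendritic and platelet genes had medians of -0.54, -0.11, 0.21 and 0.14. Without vehicle mouse 3 the medians were -0.06, 0.05, 0.18 and -0.19, and the platelet median was also below 0, at -0.09, with normexp correction.

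Tumour epithelial genes were lower in EC than in bulk by list median in all 8 mice. They had -1.51, -2.00, -1.45 and -1.25 in sensitive mice, against -0.90, -0.23, -1.49 and -2.03 in vehicle mice, and the groups overlapped. All 19 differences were below 0 with a median of -0.44, but 13 of 19 were below 0 without vehicle mouse 3, with a median of -0.23. Vehicle mouse 3 had the highest EC minus bulk of all 8 mice in 18 of the 19 genes. Its bulk median, 3.23, lay within the other bulk arrays, 2.34 to 3.60, while its EC median, 2.74, was the highest of the 8. Between groups the list median was -0.53 in EC and -0.12 in bulk, or -0.25 and -0.08 without vehicle mouse 3. Cell cycle genes were above 0 in 27 of 32, with a median of 0.28 (25 of 32 and 0.23 without vehicle mouse 3). In 3 the sensitive mice lay wholly above the vehicle mice, against 1.63% of all measured genes. The 3 were the mitotic kinesins Kif23 and Kif11, at 0.53 ± 0.18 and 0.42 ± 0.17 (SE), and the spindle checkpoint kinase Bub1b at 0.45 ± 0.19 (SE). Without vehicle mouse 3 the 3 differences were 0.51, 0.38 and 0.42, in that order. Cell cycle levels were lower in EC than in bulk in all 8 mice, by 0.49 to 0.84 in sensitive mice and by 0.80 to 1.05 in vehicle mice.

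Metabolic, stress and matrix lists had medians between -0.20 and 0.31. Glycolysis genes had a median of -0.20, which was -0.02 with quantile scaling and -0.01 in the deposited table. In that list Slc2a3, a glucose transporter, differed by -1.18 ± 0.31 (SE), or -0.92 without vehicle mouse 3. Its differences were -0.62, -0.68, -1.14 and -0.95 in sensitive mice, against -0.37, 1.09, 0.23 and 0.37 in vehicle mice. Aldoc, an aldolase, differed by -0.81 ± 0.28 (SE). Hypoxia genes had a median of -0.13 (0.01 without vehicle mouse 3), and type I interferon response genes one of -0.13. Antigen presentation and cholesterol synthesis genes had -0.03 and -0.01, which were 0.13 and 0.04 with quantile scaling and -0.09 and 0.08 without vehicle mouse 3, and lysosome genes had 0.11, or 0.02 without that mouse. Endoplasmic reticulum and amino acid stress genes had -0.11 (-0.07 without that mouse), which quantile scaling put at 0.00. Fibroblast genes had 0.02, which was -0.18 to 0.31 with 1 mouse left out and 0.09 without vehicle mouse 3. Mesenchymal transition genes had 0.18, or 0.09 to 0.28 with 1 mouse left out. Matrix remodelling genes had 0.31, or 0.14 without vehicle mouse 3. Adamts4, a secreted protease of the last list, differed by 1.10 ± 0.42 (SE), or 0.67 without that mouse.

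Single members of these lists had groups that did not overlap. Over all measured genes that share was 1.63% with sensitive mice higher and 4.03% with them lower. Lower were 1 of 17 fibroblast, 2 of 14 mesenchymal transition, 1 of 20 lysosome and 1 of 21 oxidative phosphorylation genes. Antigen presentation and cholesterol synthesis each had 1 higher and 1 lower of 21, and pro-angiogenic genes 1 higher of 21. Fn1, the matrix protein fibronectin, had -0.57, -0.43, -0.15 and -0.23 in sensitive mice, against 0.04, 0.29, -0.06 and -0.01 in vehicle mice. Its difference was -0.41 ± 0.19 (SE), or -0.34 without vehicle mouse 3. S100a4, a calcium-binding protein of motile cells, differed by -0.56 ± 0.22 (SE), but its other tested probe had 0.00. Ednrb, an endothelin receptor counted with the pro-angiogenic genes, had 3.31, 2.34, 2.33 and 2.50 in sensitive mice, against 1.64, 0.79, 1.65 and 2.20 in vehicle mice. Its difference was 1.05 ± 0.34 (SE), or 0.79 without vehicle mouse 3, and its other tested probe had 1.00. The list of those genes had a median of 0.31 (0.47 without that mouse) with 17 of 21 above 0. Cxcl9, a chemokine induced by interferon gamma, differed by 1.23 ± 0.49 (SE), or 1.00 without that mouse, and Tap2, a peptide transporter of antigen presentation, by -0.37 ± 0.19 (SE). The sterol synthesis enzymes Sc5d and Dhcr7 lay on opposite sides, at -0.35 ± 0.21 and 0.26 ± 0.18 (SE), or -0.22 and 0.29 without that mouse. Mcoln1, a lysosomal ion channel, had -0.49 to -0.09 in sensitive mice and 0.08 to 0.34 in vehicle mice. Cox4i1, a cytochrome c oxidase subunit, differed by -0.30 ± 0.19 (SE). TGF-beta and BMP genes had a median of 0.23 with 14 of 20 above 0, adipocyte genes 0.32 (0.21 without vehicle mouse 3) and skeletal muscle genes 0.29, the last of which was -0.10 without vehicle mouse 3.

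Immediate early and cytokine genes rested on vehicle mouse 3. Over 23 immediate early genes the median EC minus bulk was -0.29 to 0.15 in sensitive mice. It was 2.74 in vehicle mouse 3 and -0.14 to 0.21 in the other vehicle mice. The list median was -0.61 with 20 of 23 below 0, and without that mouse it was 0.17 with 18 of 23 above 0. The 22 inflammatory cytokine genes had a median of -0.73, which became 0.05 without that mouse.

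Ribosomal protein genes were, of the 39 lists, the one with the most members apart. Over 20 genes the median EC minus bulk was -0.50, -0.67, -0.39 and -0.45 in sensitive mice, against -0.07, -0.16, 0.10 and -0.16 in vehicle mice. The groups did not overlap, and in 11 of 20 genes the sensitive mice lay wholly below the vehicle mice (14 of 20 without vehicle mouse 3). Over all measured genes that share was 4.03%, or 6.36% without that mouse. The median difference was -0.38, or -0.43 without that mouse, with 0.40 in bulk and 0.00 in EC. The large subunit genes Rpl8, Rpl11, Rpl32 and Rpl13 had -0.51, -0.48, -0.49 and -0.47. Other tested probes had -0.40 for Rpl8, -0.36 and -0.15 for Rpl11, and -0.44 and -0.53 for Rpl13. In limma 0 of the 20 passed and 7 had an unadjusted p under 0.05, against 9.01% of all measured genes. The median level of the list was 7.86 to 8.74 above the array's 75th percentile, and the result depended on the scaling. With quantile scaling the median was -0.09 with 1 of 20 apart, and in the authors' deposited table it was -0.02 with 0 apart. Oxidative phosphorylation genes, at -0.10, had 0.06 with quantile scaling and -0.04 without vehicle mouse 3.

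The excess of lower over higher genes also depended on the scaling. Of the measured genes whose groups did not overlap, 71.2% were lower in sensitive mice, against 51.3% with quantile scaling, 46.5% when the array median replaced the 75th percentile, and 52.8% in the deposited table. With measured genes cut into 5 equal classes by brightness, the brightest class held 24 higher and 238 lower, and the dimmest 38 higher and 144 lower. The middle class held 81 higher and 69 lower.

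Genes of smallest p differed mainly in bulk. The 10 with sensitive mice wholly above vehicle mice had differences of 0.89 to 2.27, with adjusted p of 0.167 to 0.267 in limma. Without vehicle mouse 3 the differences were 0.86 to 2.28. All 10 were lower in bulk of sensitive mice, and 9 were higher in EC. Pgm5, a phosphoglucomutase relative of muscle adhesions, had 2.97, 3.25, 3.68 and 3.05 in sensitive mice, against 1.69, 1.88, 1.69 and 2.06 in vehicle mice. Its difference was 1.40 ± 0.21 (SE), or 1.42 without vehicle mouse 3, but its 2 other tested probes had 0.35 and 0.21. Dlc1, a GTPase-activating protein, had 3.24, 3.16, 3.69 and 3.27 in sensitive mice, against 2.35, 1.99, 1.87 and 2.39 in vehicle mice. Its difference was 1.19 ± 0.21 (SE), or 1.14 without that mouse. Fry, a large microtubule-binding protein, differed by 1.69 ± 0.31 (SE), with 0.30 from its other tested probe, and Tmem88, a membrane inhibitor of Wnt signalling, by 1.55 ± 0.31 (SE), or 1.26 without that mouse. Ch25h, which makes 25-hydroxycholesterol, differed by 1.39 ± 0.27 (SE), and Chst15, a sulfotransferase of chondroitin sulfate, by 1.15 ± 0.23 (SE). Rap1a, a small GTPase of cell adhesion, differed by 1.47 ± 0.30 (SE), but had 0.18 to 1.74 over the alternatives. The protocadherin gene Pcdhga9 differed by 0.89 ± 0.19 (SE), with 0.25 from its other tested probe. Glod5, a glyoxalase domain gene, differed by 2.27 ± 0.40 (SE), and had 1.03 to 2.64 over the alternatives. It was well above background on 1 of 4 sensitive and 3 of 4 vehicle bulk arrays. Grp, the neuropeptide gastrin-releasing peptide, was lower in sensitive mice in both fractions, by -1.37 in EC and -2.99 in bulk, and its difference was 1.63 ± 0.30 (SE).

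**Figure D4:**
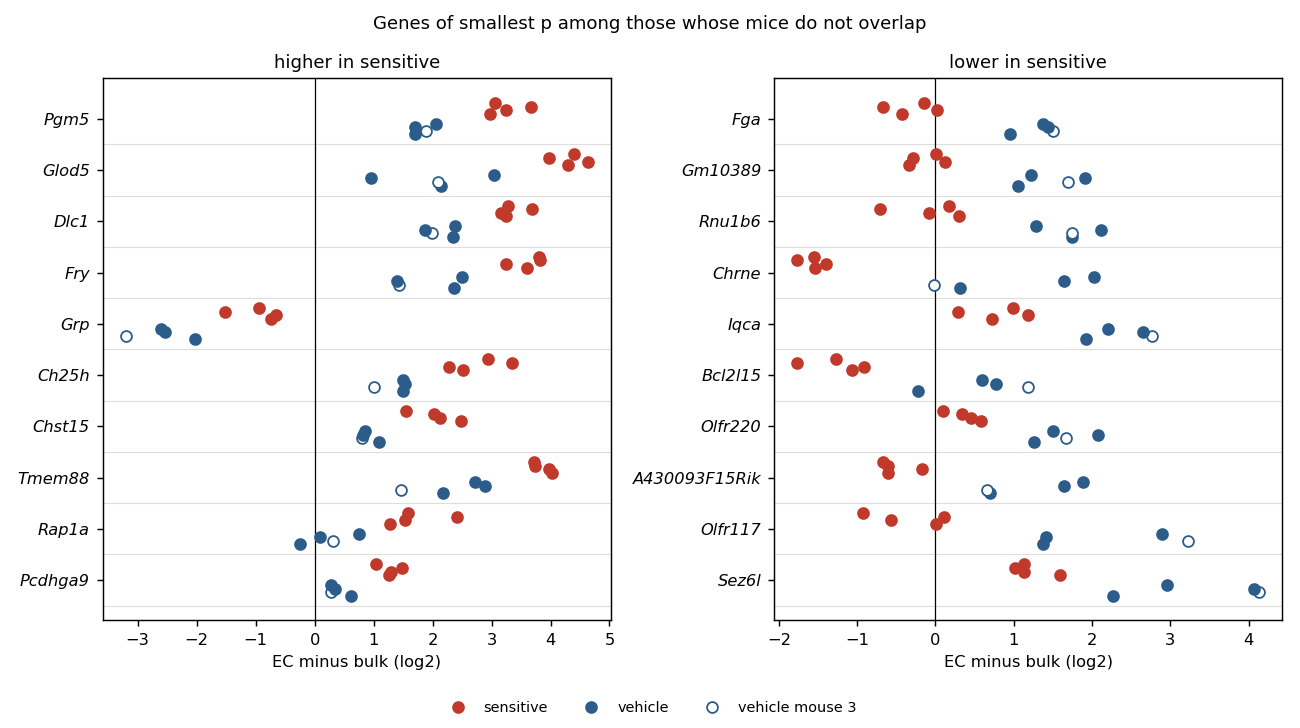
EC minus bulk (log2) in every mouse for the 10 genes of smallest p in each direction among those whose mice do not overlap, sensitive (red) above vehicle (blue). Vehicle mouse 3 is an open circle, and Pgm5 and Fga head the panels with differences of 1.40 and -1.62.

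The 10 genes with sensitive mice wholly below vehicle mice had differences of -2.57 to -1.26, with adjusted p of 0.162 to 0.253 in limma. Without vehicle mouse 3 the differences were -2.89 to -1.24. In bulk all 10 were higher in sensitive mice, by 1.19 to 2.19, while their EC values differed by -0.86 to 0.39. Fga, the fibrinogen alpha chain, had -0.42, 0.02, -0.66 and -0.14 in sensitive mice, against 0.95, 1.50, 1.43 and 1.37 in vehicle mice. Its difference was -1.62 ± 0.22 (SE), the smallest p of any measured gene, or -1.55 without vehicle mouse 3, and its other tested probe had -0.55. With mouse as a random block over all 16 arrays, in place of differences within mice, Fga had an adjusted p of 0.0122 in limma. The remaining 9 were Gm10389, a predicted gene, Rnu1b6, a U1 small nuclear RNA, Chrne, an acetylcholine receptor subunit of muscle, Iqca, Bcl2l15, a BCL2 relative, the olfactory receptor genes Olfr220 and Olfr117, A430093F15Rik and Sez6l. Only 1 of 4 vehicle bulk arrays was well above background for Iqca and Olfr117, and 2 of 4 for Chrne, Olfr220 and Sez6l. Over the alternatives Olfr220 had -1.62 to -0.40, Iqca -1.75 to -0.58 and Olfr117 -2.86 to -0.85. Chrne had -2.89 to -1.09 and Sez6l -2.50 to -1.17. Other tested probes had -0.33 and -1.05 for Bcl2l15 and -1.99 for Olfr220. Over all measured genes the bulk difference between groups was larger in size than the EC difference in 61.0%, against 66.5% of the 275 higher and 84.4% of the 679 lower genes.

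**Figure D5:**
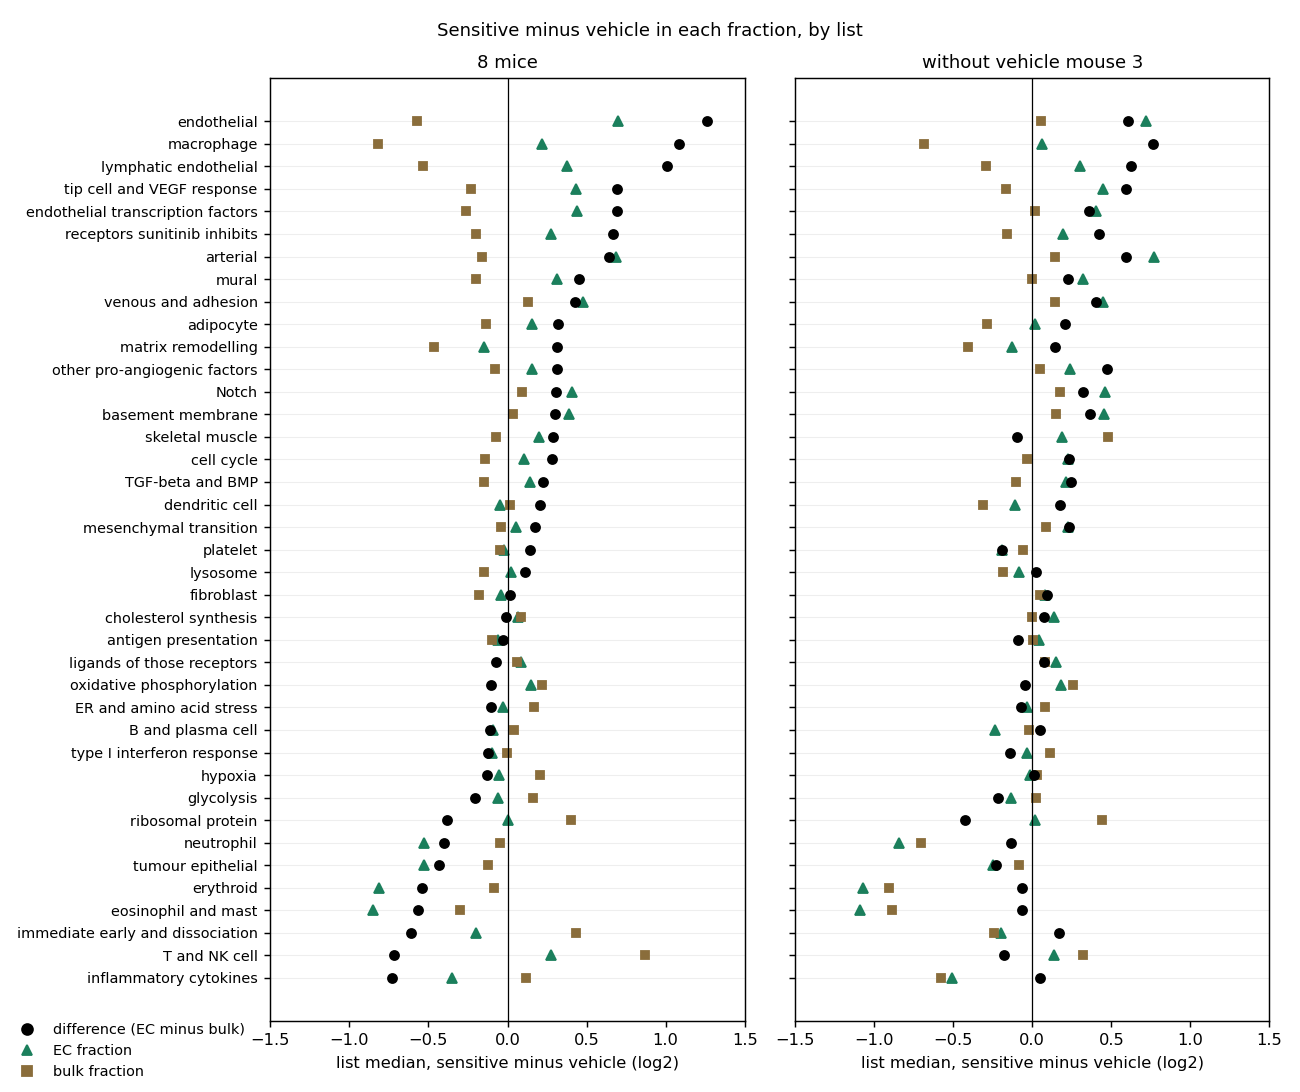
Median difference between sensitive and vehicle mice (log2, x axis) over each of 39 gene lists in the EC fraction (triangles), in bulk (squares) and in EC minus bulk (circles), from all 8 mice (left) and without vehicle mouse 3 (right). The endothelial bulk median is -0.58 on the left and 0.05 on the right, while the macrophage bulk median is -0.82 and -0.68.

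Of the 631 different measured genes in the 39 lists, 0 passed in limma and 66 (10.5%) had an unadjusted p under 0.05, against 9.01% of all measured genes.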

How the data were processed

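RNA was measured on single-colour Agilent arrays. Spot intensity was extracted with Feature Extraction 10.7.3.1, per the file headers (9.1 in the submitters' processing notes), with the background subtracted and no scaling across arrays. A deposited value table, also in intensity units, was normalised by the authors in a way not given in the sources used here. Control spots and spots flagged as outliers were left out, replicate spots averaged and 55681 probes kept. Probes were named by RefSeq accession through a table of assembly GRCm38.p6, which named 26582 probes for 20145 genes. The 29099 others were tested apart. The files' own build is not given in the sources used here.

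A gene is its brightest probe over the 16 arrays, tested where well above background on at least 4 of them. EC minus bulk was taken within each mouse and fitted by limma (version 3.58.1, R version 4.3.3) using lmFit, eBayes and Benjamini-Hochberg adjustment, threshold 0.05, and 6 residual degrees of freedom. For 6 genes 1 mouse was missing because of a flagged spot. SE are moderated, and SD is over mice. No spot was saturated (0). The number of arrays limits the precision. The labels give both fractions of a mouse the same number, and deviations from the group means correlated at 0.188 to 0.484 between them. For vehicle mouse 3 this was 0.328, but its EC array correlated at 0.326 with the bulk array of another vehicle mouse. In each other mouse the highest correlation with another bulk array of its group was lower than its own, at -0.135 to 0.195.

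Named are, per direction, up to 10 called genes well above background on at least 12 arrays whose mice do not overlap, filled up by smallest p, and Pecam1, Cdh5, Kdr, Flt1, Flt4, Pdgfra, Pdgfrb, Kit, Csf1r, Ret and Vegfa. In each of 39 lists up to 4 members whose mice do not overlap are also named, and H2-M10.2, outside this rule, as the 1 gene called. A further gene that meets the rule is not reported here. Members and lists were chosen with earlier results of these data known, and vehicle mouse 3 was singled out after its values were seen. The lists share genes, with 713 entries for 661 different genes, of which 652 were on the array. Alternatives changed the background correction (normexp with offset 50, run on the median spot signal in place of the mean), scaling, filter, probe rule, block, moderation and mice. The fits were tested on simulated data. Figures used Python 3.11.15 and matplotlib 3.10.9.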

Additional observations from a re-analysis of the deposited data

Results flagged for a closer look

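Among 214 groups of 4 mice, 12 held a mouse far from the other 3 by Dixon's test, which chance gives in about 5% of groups. Vehicle mouse 3 was the mouse set apart in 5 of the 12. For it the median EC minus bulk of the immediate early list was the highest of its group at 2.74. Its EC minus bulk was the lowest of its group for Ch25h at 1.00, Ecscr at 0.89, Meox2 at 1.96 and Rgs5 at 1.55.

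The other 7 were spread over 4 mice. Vehicle mouse 2 was lowest for the neutrophil list at -1.21. Vehicle mouse 4 was highest for Kit at 3.48 and lowest for Epx at 0.45. Sensitive mouse 3 was highest for A430093F15Rik at -0.18 and lowest for Sc5d at -1.04. Sensitive mouse 4 was lowest for Cdh5 at 6.94 and highest for Maf at 2.67.

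The difference between sensitive and vehicle mice passed the test for H2-M10.2, at -2.34. For 2 genes all sensitive mice had less signal in EC than in bulk and all vehicle mice had more: A430093F15Rik, with a difference of -1.74, and Mcoln1, with -0.49. Those 2 differences did not pass in limma, with adjusted p of 0.197 and 0.420.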

How the results depend on the processing

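The endothelial and macrophage medians kept their direction in every alternative run, at 0.60 to 1.70 and 0.76 to 1.46 with 1 mouse left out. The ribosomal median was -0.43 to -0.32 with 1 mouse left out, -0.088 with quantile scaling and -0.018 in the deposited table. The count of genes called, 1, was 0 with normexp, quantile scaling, the array median or the deposited table. It was also 0 with resistant mice sharing the spread or an intensity trend in limma. Either stricter filter gave 0 too, but left H2-M10.2 untested, as it was well above background on 11 of 16 arrays. Across these settings 784 to 1903 genes had an unadjusted p under 0.05. With the mouse number as a replicate block across treatments the count was 0, with an adjusted p of 0.405 for H2-M10.2 in limma. Deviations of same-numbered mice correlated at -0.25 to 0.03, so they share only a number. With no replicate block it was 4, and with mouse as a random block 8. With 1 mouse left out it was 0 to 6, the 6 without vehicle mouse 2 and 2 without vehicle mouse 4. With only the bulk array of vehicle mouse 3 left out and mouse as a random block, chosen after seeing the data, it was 16. Vegfa turned positive with normexp (0.0062), quantile scaling (0.011), the array median (0.023), the deposited table (0.080) and that added setting (0.39), and was -0.42 to 0.25 with 1 mouse left out. Pdgfra was 0.015 with the array median and -0.35 to 0.17 with 1 mouse left out, Kit -0.0069 to 0.80, and Kdr was 0.95 as the mean over probes. Apart from turns of sign, 13 gene values over all settings lost the threshold, all of them of H2-M10.2, the only gene called. The 6 that passed it were values of Fga, Gm10389, Chrne and Epx. Of the 39 list medians, 17 turned sign in at least 1 setting, 45 values in all, up to 9 for cholesterol synthesis. The cause was not tested. Dim signal also limits the contrast, since 899 genes had no vehicle bulk array well above background.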
